A study of Mus musculus with 2 samples.

Results

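The genes described here encode the signalling pathway of transforming growth factor β (TGF-β), bone morphogenetic proteins (BMPs) and activins. They were chosen by gene symbol from a fixed list of 55, and all 55 were found among the 21983 entries of the deposited count table. They comprise 17 ligands, 4 latent-binding proteins, 12 receptors and co-receptors, 8 SMADs, 6 secreted antagonists, 4 intracellular regulators and 4 Id target genes. Their RNA was measured in wild-type (WT) primary mouse chondrocytes, the cells of cartilage, kept in serum-containing medium. The control culture received PBS for 3 days. The other culture received recombinant mouse Sparcl1 protein, a secreted matricellular protein, at 50 ng/ml for 3 days. Each condition had 1 library, so no difference has a replicate check, no test across conditions was possible and no p-value is given. The labels state that the cells are primary, and the sources used here do not state mouse strain, age or how many animals a culture came from.

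Ligands of this family are secreted dimers. They bind a type II receptor, which activates a type I receptor, which in turn phosphorylates SMAD proteins that enter the nucleus with Smad4. TGF-βs and activins act mainly through Smad2 and Smad3, and BMPs and some growth and differentiation factors (GDFs) through Smad1, Smad5 and Smad9. In cartilage, BMP signalling drives chondrocyte formation and matrix production, while TGF-β signalling holds back terminal maturation. Supply of ligand is controlled outside the cell by latent-binding proteins and antagonists, and the signal is damped inside it by Smad6, Smad7 and ubiquitin ligases.

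The control library held 29858851 counts and the Sparcl1-treated library 26871933. Levels are given in CPM, a unit that corrects counts for sequencing depth, and ratios are Sparcl1-treated over control on the log2 scale. Each ratio carries a 95% counting interval, which covers sampling of reads only and neither variation between cultures nor copies made by PCR. The chondrocyte markers Col2a1 (254556 control and 199410 treated counts) and Comp (85813 and 80709) were abundant, and all 15 listed chondrocyte markers were detected, although Matn3 (71 and 39 counts) and Snorc (63 and 65) were rare. The summed level of the chondrocyte markers was 13962 CPM in the control and 12221 after Sparcl1, and 13 of the 15 had ratios below 1. Markers of other cell types were present too. The summed level of 10 macrophage markers was 2128 CPM in the control and 2445 after Sparcl1. Lyz2 alone supplied 1327 and 1640 CPM of these sums. Of the 10 macrophage genes, 5 were lower and 5 were higher in the treated library, and the median was 0.01 (log2). In the same order, the sum was 23325 and 19257 CPM for 10 fibroblast markers and 367.5 and 244.1 for 8 osteoblast markers. It was 1552 and 1108 CPM for 8 smooth muscle markers, and 85.9 and 87.6 for 7 osteoclast markers. The endothelial genes Pecam1 (12 and 7 counts), Cdh5 (3 and 5), Tie1 (1 and 0) and Cldn5 (1 and 0) were at or near 0, and the 10 endothelial markers summed to 13.1 and 13.4 CPM, most of it from Erg (272 and 271 counts). In bulk RNA, fewer cells of a type and less RNA per cell cannot be told apart, and the part of other cell types in the differences below was not tested.

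Most of the pathway stayed close to equal expression, and the members furthest from it were ligand, receptor and antagonist genes. Bmp7 was 3.25-fold higher after Sparcl1 from few reads, the type I receptor gene Bmpr1b was 1.72-fold higher, the ligand gene Gdf6 was 1.59-fold higher, and the BMP antagonist gene Chrdl1 was 1.54-fold lower. The antagonist gene Grem1 (1.497-fold higher) and Ltbp2 (1.40-fold higher) were the other members well above equality with many reads. The SMAD genes had log2 ratios from -0.14 to 0.24. The BMP target genes Id1, Id2 and Id3 were at 0.02, 0.01 and 0.03, and Id4 was at -0.21. Of 19 TGF-β target genes outside the list of members, 14 had ratios below 1 (73.7%, beside 50.4% of all genes). Their median log2 ratio was -0.16. Of the 19, 6 are also on the lists of fibroblast or smooth muscle markers. Over the other 13 the median was -0.06, with 8 ratios (61.5%) below 1.

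Of the 55 members, 54 had at least 20 summed counts, and their median log2 ratio was 0.01, against 0.00 for all 13317 genes with that many. By a rule of size that asks for 20 summed counts, a 2-fold ratio and an interval that excludes 0, 1 member was higher and 0 were lower. Over all genes the same rule took 0.954% as higher and 0.946% as lower. At 1.5-fold, 3 members were higher and 1 was lower, and over all genes the shares were 2.32% and 2.35%. The interval alone excluded 0 for 14 higher members (25.9%) and 15 lower members (27.8%), beside 20.1% and 21.6% of all genes. That count depends on depth, and 92.6% of the 54 members had at least 200 summed counts against 84.1% of all genes. Ratios below 1 were found for 25 of the 54 (46.3%), beside 50.4% of all genes. For abundant genes, those with 200 or more summed counts, the central 95% of log2 ratios spanned -0.42 to 0.42. Of 50 members that abundant, 4 lay above that range (Gdf6, Bmpr1b, Grem1 and Ltbp2) and 2 below it (Gdf10 and Chrdl1), where by construction 2.5% of all such genes lie on each side. The counts past a fold limit are small, and nothing particular to the pathway is read from them.

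**Figure D1:**
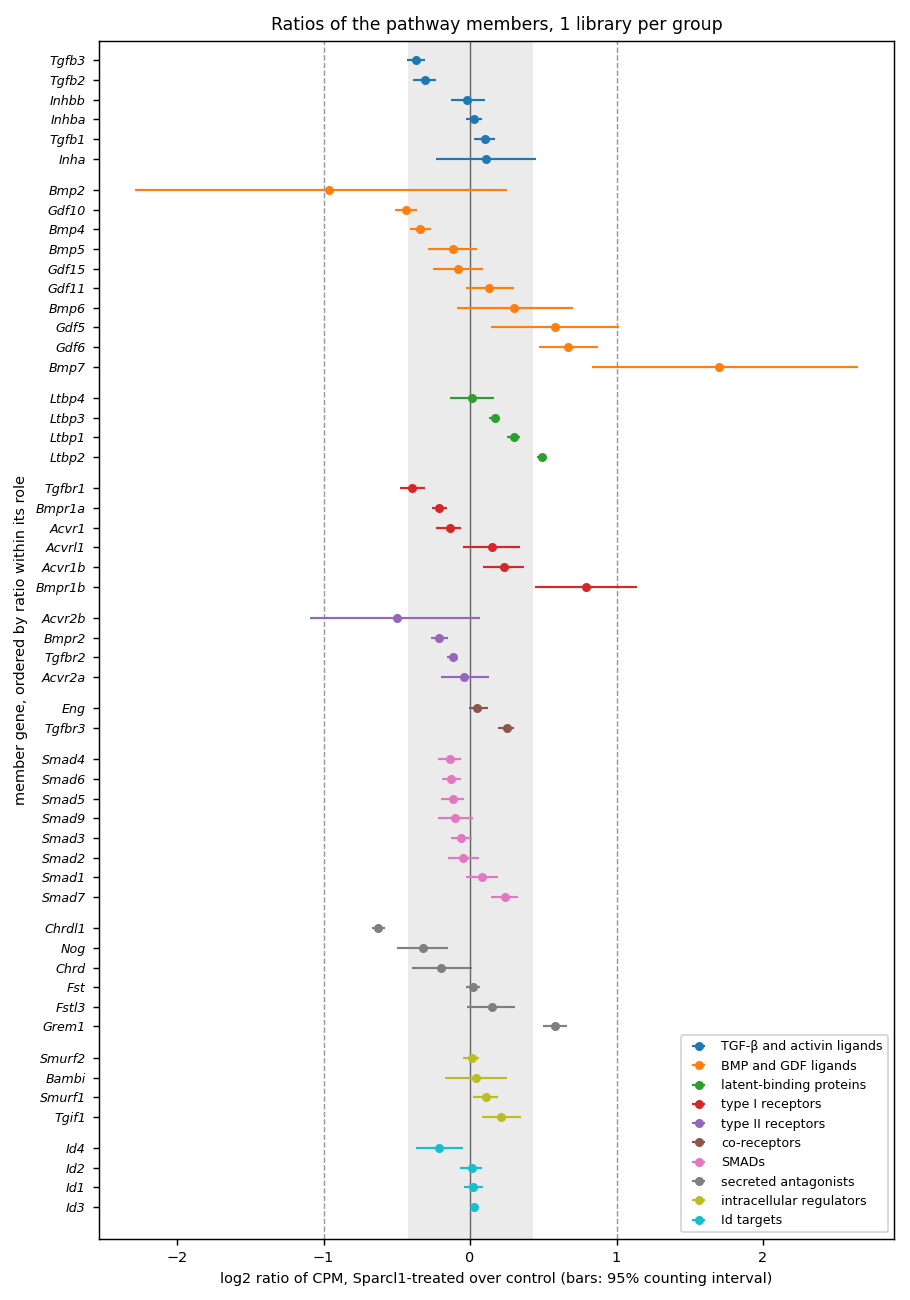
Log2 ratios of CPM (x axis, Sparcl1-treated over control) for the 54 members with at least 20 summed counts (y axis), coloured by role, with 95% counting intervals as bars, the central 95% of abundant genes (-0.42 to 0.42) shaded and 2-fold marked by dashed lines. Most members sit in the shaded band, Bmp7 (1.70) lies past the upper 2-fold line, and Id1 (0.02), Id2 (0.01) and Id3 (0.03) lie beside 0.

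**Figure D2:**
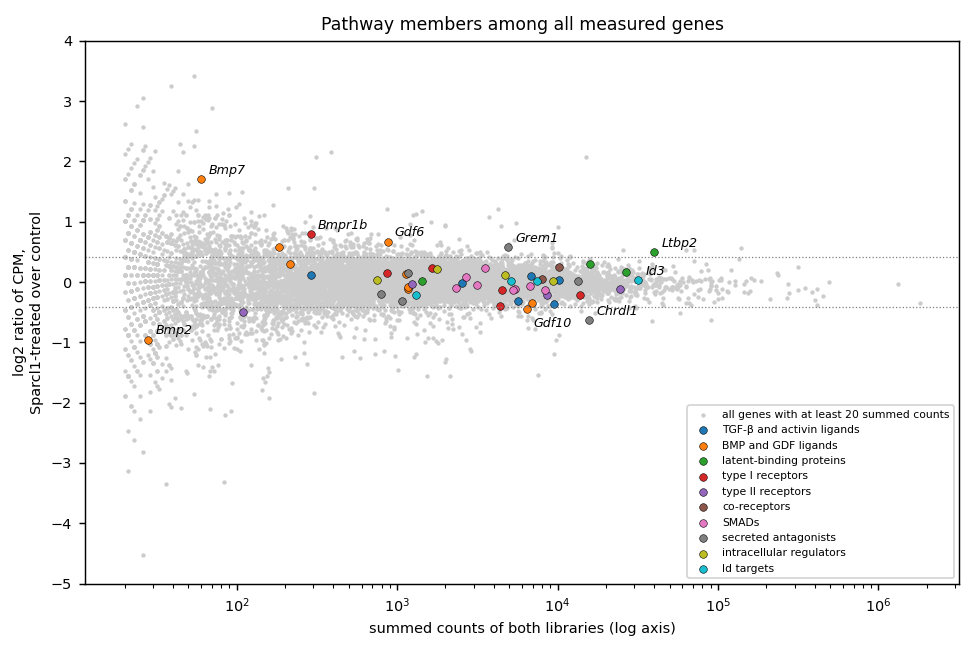
Log2 ratio of CPM (y axis) against summed counts of both libraries (x axis, log scale) for all 13317 genes with at least 20 counts (grey) and for the members (coloured by role); dotted lines mark -0.42 and 0.42. Rare genes scatter more widely than abundant ones, and Chrdl1 (-0.63), Grem1 (0.58) and Ltbp2 (0.49) stand at the edge of the cloud at their abundance.

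The 3 TGF-β isoform genes had ratios on both sides of 1. Tgfb3 counted 5534 reads in the control and 3954 after Sparcl1, or 187.6 and 145.4 CPM, a log2 ratio of -0.37 (95% counting interval -0.43 to -0.31). Tgfb2 was also lower, with 3251 and 2420 counts, for a log2 ratio of -0.31 (-0.39 to -0.23). Tgfb1, which is the main isoform of many immune cells, had 3462 and 3415 counts, for a log2 ratio of 0.10 (0.03 to 0.17). So Tgfb2 and Tgfb3 were lower in the treated library, and Tgfb1 was on the other side of equality. Within each library, Tgfb3 supplied 45.2% of the isoforms' counts in the control (Clopper-Pearson interval 44.3 to 46.1) and 40.4% after Sparcl1 (39.4 to 41.4), while the part of Tgfb1 was 28.3% (27.5 to 29.1) and 34.9% (33.9 to 35.8). The count ratio of Tgfb3 to Tgfb1, which no library scaling can alter, was 1.60 in the control and 1.16 after Sparcl1. All 3 ratios lay inside the central range of abundant genes, Tgfb3 at percentile 3.65 and Tgfb2 at percentile 5.47 of log2 ratios. Per kilobase of exon, Tgfb3 led this group in both libraries (55.5 and 43.0 CPM per kb), followed by Inhba (28.0 and 28.6) and Tgfb1 (23.3 and 24.9). When the longest annotated transcript set the length, Tgfb1 came first in the treated library.

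Activin and inhibin chains were nearly level. Inhba, which encodes the βA chain of activin A, had 5283 and 4967 counts, so its log2 ratio was 0.03 (-0.03 to 0.08). Inhbb, the βB chain, had 1322 and 1206 (-0.02, -0.13 to 0.10). Inha, the α chain that turns an activin into an inhibin, had 146 and 145 (0.11, -0.23 to 0.45). All 3 intervals held 0, and Inhba gave 78.3% of the counts of these chains in the control and 78.6% after Sparcl1.

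BMP and GDF ligands had log2 ratios from -0.96 to 1.70 over 10 genes with at least 20 summed counts. This was the widest range of any role, but both ends are rare genes, Bmp2 and Bmp7, with wide counting intervals. Among the role's genes with at least 200 summed counts, ratios ran from -0.44 (Gdf10) to 0.67 (Gdf6). The type I receptors, all that abundant, ran from -0.40 to 0.79, and the secreted antagonists, also all that abundant, from -0.63 to 0.58. Bmp7, an osteogenic ligand on chromosome 2 (172868012 to 172940321, minus strand, GRCm38), counted 15 reads in the control and 45 after Sparcl1, or 0.509 and 1.65 CPM. Its log2 ratio of 1.70 has a wide interval, 0.83 to 2.65, and it was the member called at 2-fold. Bmp2, a strong inducer of cartilage and bone, went the other way with 19 and 9 counts, so its log2 ratio was -0.96 (-2.29 to 0.25), and the interval held 0. Bmp3 had 4 and 8 counts, too few for a ratio to be read. These 3 rare genes stood at 0.412 CPM per kb or less in both libraries.

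Gdf6 and Gdf5, related ligands of joint formation, were both higher after Sparcl1. Gdf6 (chromosome 4, 9844372 to 9862345) had 354 and 518 counts, 12.0 and 19.0 CPM, and a log2 ratio of 0.67 (0.47 to 0.87), at percentile 99.4 of abundant genes. Gdf5 had 77 and 106 counts, for a log2 ratio of 0.58 (0.14 to 1.02), just short of 1.5-fold at 1.49. In the annotation, 40.3% of Gdf5 exon bases are shared with Gm15557 on the opposite strand, and the sources used here do not state the strand setting of the counting, so reads of the overlapping genes may not have been separated.

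The abundant ligands Bmp4 and Gdf10 were lower. Bmp4, which drives chondrocyte growth and maturation, had 4020 and 2930 counts, 136.3 and 107.7 CPM, and a log2 ratio of -0.34 (-0.41 to -0.27). Gdf10, also known as Bmp3b, had 3817 and 2601 counts, 129.4 and 95.6 CPM, and a log2 ratio of -0.44 (-0.51 to -0.36), at percentile 2.28. Per kilobase, Bmp4 was the leading ligand of the role in both libraries at 60.6 and 47.9 CPM per kb, or 53.8% and 50.0% of the role's summed level. Gdf10 came next with 24.8 and 18.4. The higher ligand Gdf6 stood at 3.40 and 5.39 CPM per kb and Bmp7 at 0.127 and 0.412, so both were less abundant per kilobase than Bmp4 and Gdf10. Summed over the 11 BMP and GDF genes, counts went from 10233 to 7988 (346.9 and 293.7 CPM).

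The other ligands had intervals that held 0. Gdf15, a stress-induced cytokine, had 621 and 541 counts (-0.08, -0.25 to 0.09). Gdf11, a close relative of myostatin, had 568 and 575 (0.13, -0.03 to 0.30). Bmp6 had 101 and 115 (0.30, -0.09 to 0.70). Bmp5 had 637 and 540 (-0.12, -0.29 to 0.05), and 46.7% of its exon bases are overlapped by the antisense gene Gm26903.

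None of the 4 latent-binding protein genes had a ratio below 1, beside 50.4% of all genes. These large matrix proteins hold TGF-β inactive in the extracellular matrix, with the exception of Ltbp2, which does not bind the latent complex and is a partner of elastic fibres. Ltbp2 (chromosome 12, 84783212 to 84876532) counted 17443 reads in the control and 22589 after Sparcl1, 591.3 and 830.5 CPM, a log2 ratio of 0.49 (0.46 to 0.52) at percentile 98.5. Ltbp1 had 7449 and 8435 counts (0.30, 0.25 to 0.34) and Ltbp3 had 13192 and 13668 (0.17, 0.13 to 0.20). Ltbp4 was level, with 742 and 689 counts (0.01, -0.14 to 0.16). So Ltbp1, Ltbp2 and Ltbp3 were higher beyond counting error, as were 20.1% of all genes. The interval of Ltbp4, the member with the fewest counts, held 0. Many counts give narrow intervals, and Ltbp3 lay inside the central range at percentile 82.75. The summed level of the 4 genes was 1316 CPM in the control and 1668 after Sparcl1. Ltbp2 gave 44.9% of their counts in the control (44.4 to 45.4) and 49.8% after Sparcl1 (49.3 to 50.2). It was also the most abundant per kilobase, at 72.3 and 101.5 CPM per kb.

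Type I receptors split by gene. Bmpr1b, a BMP receptor essential for cartilage condensation together with Bmpr1a, counted 112 reads in the control and 178 after Sparcl1, 3.80 and 6.54 CPM, and a log2 ratio of 0.79 (0.44 to 1.14) at percentile 99.7. Bmpr1a, the abundant BMP receptor, had 7649 and 6092 counts, for a log2 ratio of -0.21 (-0.26 to -0.16). Bmpr1b therefore remained a minor receptor: it held 0.799% of type I receptor counts in the control (0.659 to 0.961) and 1.56% after Sparcl1 (1.34 to 1.80). The count ratio of Bmpr1b to Bmpr1a was 0.0146 and 0.0292, a change of 1.995-fold (exact interval 1.56 to 2.56). Tgfbr1, the TGF-β type I receptor, had 2573 and 1804 counts, for a log2 ratio of -0.40 (-0.48 to -0.31), at percentile 2.96 and just inside the central range. Acvr1, a BMP receptor, had 2456 and 2050 (-0.14, -0.23 to -0.06). The activin receptor gene Acvr1b had 798 and 862 (0.23, 0.09 to 0.37). Acvrl1, best known from endothelium, had 426 and 435 (0.15, -0.05 to 0.34). By level, Bmpr1a made up 50.1% and 48.3% of the summed type I receptor level per kilobase, and Acvr1 and Tgfbr1 came next.

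All 4 type II receptors had ratios below 1, as did 50.4% of all genes, with log2 ratios from -0.50 to -0.04. Tgfbr2, the TGF-β type II receptor, had 13206 and 11173 counts (-0.12, -0.16 to -0.09). Bmpr2 had 4795 and 3820 (-0.21, -0.27 to -0.15). The activin receptor Acvr2a was level with 652 and 586 (-0.04, -0.20 to 0.13), and Acvr2b was rare with 66 and 43 (-0.50, -1.09 to 0.07). For the latter pair the interval held 0. Tgfbr2 dominated the role at 54.7 and 50.2 CPM per kb, about 80.2% and 80.7% of its summed level. The co-receptor Tgfbr3 (betaglycan), which presents TGF-β2 to the receptors and also binds inhibin, was higher at 4847 and 5309 counts (0.25, 0.19 to 0.30). The co-receptor Eng (endoglin) was near level at 4092 and 3915 (0.05, -0.01 to 0.12), with 34.3 and 35.6 CPM per kb.

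**Figure D3:**
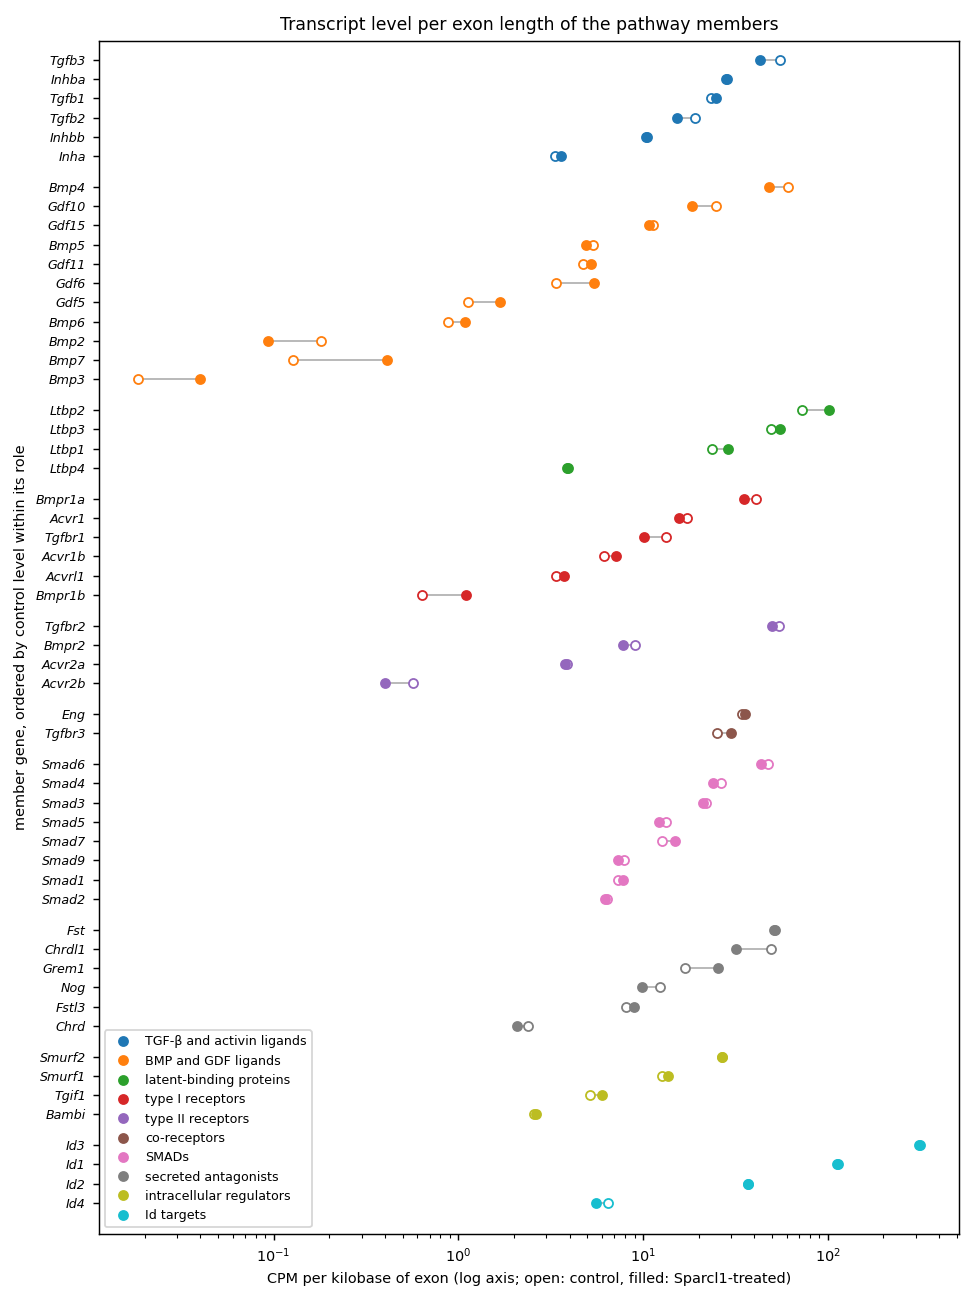
Level per exon length in CPM per kilobase (x axis, log scale) for the 55 members (y axis), ordered within each role, with open points for the control and filled points for the Sparcl1-treated library. Id3 is the highest gene (310.9 and 317.1 CPM per kb), and the points move furthest apart for the rare ligands Bmp3, Bmp7 and Bmp2.

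SMAD genes, the transducers of the signal, had log2 ratios from -0.14 to 0.24, and none of the 8 lay outside the central range. For the TGF-β and activin branch, Smad3 had 3575 and 3171 counts (-0.06, -0.13 to 0.01) and Smad2 1660 and 1482 (-0.05, -0.15 to 0.06). For the BMP branch, Smad5 had 2914 and 2477 (-0.12, -0.20 to -0.04), Smad1 1360 and 1323 (0.08, -0.03 to 0.19) and Smad9 1250 and 1075 (-0.10, -0.22 to 0.02). The shared partner Smad4 had 2886 and 2415 (-0.14, -0.22 to -0.06). Of these 6 transducers, the interval excluded 0 for Smad5 and Smad4, both lower, as it did for 21.6% of all genes. Smad3 gave 33.2% of the receptor-activated SMAD counts in the control and 33.3% after Sparcl1, and Smad5 gave 27.1% and 26.0%, and for both genes the intervals of the libraries overlapped.

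The inhibitory SMADs went apart. Smad7, a feedback inhibitor that TGF-β itself induces, had 1683 and 1828 counts, for a log2 ratio of 0.24 (0.14 to 0.33). Smad6, which is induced by BMPs and blocks their branch, had 4514 and 3816 (-0.13, -0.19 to -0.06). The count ratio of Smad7 to Smad6 was 0.373 in the control and 0.479 after Sparcl1, a change of 1.29-fold (exact interval 1.19 to 1.39). Smad6 was the more abundant in both, at 47.7 and 43.8 CPM per kb against 12.6 and 14.9.

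Secreted antagonists held both the lowest and a high ratio of the abundant members. Chrdl1 (chordin-like 1, chromosome X, 143285674 to 143394262), a secreted binder of BMPs, counted 9866 reads in the control and 5891 after Sparcl1, 334.4 and 216.6 CPM. Its log2 ratio of -0.63 (-0.67 to -0.58) lay at percentile 0.840 of abundant genes. Grem1 (gremlin 1, chromosome 2, 113746164 to 113758646), which traps BMP2, BMP4 and BMP7, had 2075 and 2864 counts, 70.3 and 105.3 CPM. Its log2 ratio of 0.58 (0.50 to 0.66) lay at percentile 99.1. The makeup of the BMP antagonists on the member list therefore differed between the libraries. Chrdl1 gave 75.9% of the counts of Chrdl1, Grem1, Nog and Chrd in the control (75.2 to 76.6) and 61.6% after Sparcl1 (60.6 to 62.6). The part of Grem1 was 16% (15.3 to 16.6) and 29.9% (29.0 to 30.9). Per kilobase of exon, Chrdl1 gave 61% and 46.2% of the summed level of these genes, and Grem1 20.9% and 36.6%. The count ratio of Grem1 to Chrdl1 was 0.210 and 0.486, a change of 2.31-fold (exact interval 2.17 to 2.47).

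Nog (noggin), a high-affinity BMP antagonist of cartilage, had 617 and 455 counts (-0.32, -0.50 to -0.15), and Chrd (chordin) had 440 and 354 (-0.20, -0.40 to 0.01). Nog kept its ratio to Bmp4, at 0.153 and 0.155 (change 1.01-fold, 0.886 to 1.16), while Grem1 over Bmp4 went from 0.516 to 0.977 (change 1.89-fold, 1.76 to 2.04). The activin-binding follistatin gene Fst had 6921 and 6461 counts (0.02, -0.03 to 0.07), and its ratio to Inhba was 1.31 and 1.30. Fstl3, a follistatin relative, had 582 and 594 (0.15, -0.02 to 0.31), with 47.3% of its exon bases shared with Prss57 on the opposite strand. Among the antagonists on the member list, Fst was the most abundant per kilobase in both libraries (51.1 and 51.8 CPM per kb). Chrdl1 came first of these in the control when the longest transcript set the length. In all, 12 such pair ratios were computed, and the pairs were picked after the single values were seen.

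Promoter sequences are shown for Bmpr1b, a member past 1.5-fold, and for Id4. They are also shown for Grem1, Bmp4 and Gdf10, abundant antagonist and ligand genes with large ratios, chosen after their values were seen. Each is a RefSeq window free of annotated exons, and the windows of Id2 and Id3 are not. Windows are the 250 bases before a start of transcription in GRCm38.p6, 5′ to 3′ on the strand of the gene. Capitals mark matches, on either strand, to CAGAC (a half-site of the SMAD-binding CAGA box), GGCGCC (a GC-rich SMAD element of BMP targets) or CACGTG (an E-box), and the palindromic SMAD element GTCTAGAC was searched too. Of 3 Bmpr1b windows, 2 are free of exons and shown. They precede starts inside the annotated gene, at chr3:141931589-141931838 and chr3:141982265-141982514 (minus strand). Grem1 lies at chr2:113758649-113758898 (minus strand), Bmp4 at chr14:46390670-46390919 (minus strand), Gdf10 at chr14:33923337-33923586 (plus strand) and Id4 at chr13:48260866-48261115 (plus strand).
Bmpr1b, start at the lower coordinate: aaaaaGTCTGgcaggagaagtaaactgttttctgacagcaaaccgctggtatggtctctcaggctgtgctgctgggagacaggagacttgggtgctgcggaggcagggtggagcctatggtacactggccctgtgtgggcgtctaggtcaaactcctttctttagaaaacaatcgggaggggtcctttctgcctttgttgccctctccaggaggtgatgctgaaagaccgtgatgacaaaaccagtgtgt
Bmpr1b, start at the higher coordinate: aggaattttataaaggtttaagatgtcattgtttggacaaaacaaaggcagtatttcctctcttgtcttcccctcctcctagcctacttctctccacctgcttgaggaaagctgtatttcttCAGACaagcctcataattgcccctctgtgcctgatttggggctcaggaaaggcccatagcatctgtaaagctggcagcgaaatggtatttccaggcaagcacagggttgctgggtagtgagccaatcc
Grem1: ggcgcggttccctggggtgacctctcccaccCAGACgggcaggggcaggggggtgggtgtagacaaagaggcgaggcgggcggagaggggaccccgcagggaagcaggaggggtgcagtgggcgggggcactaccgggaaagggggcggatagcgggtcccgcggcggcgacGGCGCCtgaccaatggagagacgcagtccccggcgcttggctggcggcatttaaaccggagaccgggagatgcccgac
Bmp4: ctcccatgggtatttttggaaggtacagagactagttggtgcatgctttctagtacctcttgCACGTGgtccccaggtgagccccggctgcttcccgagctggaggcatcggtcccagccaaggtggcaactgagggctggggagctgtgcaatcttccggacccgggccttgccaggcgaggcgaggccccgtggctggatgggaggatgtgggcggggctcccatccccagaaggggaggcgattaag
Gdf10: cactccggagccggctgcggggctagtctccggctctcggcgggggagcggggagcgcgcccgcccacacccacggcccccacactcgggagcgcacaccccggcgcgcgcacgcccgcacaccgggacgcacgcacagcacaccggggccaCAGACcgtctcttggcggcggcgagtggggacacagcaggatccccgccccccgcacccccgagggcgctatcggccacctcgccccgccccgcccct
Id4: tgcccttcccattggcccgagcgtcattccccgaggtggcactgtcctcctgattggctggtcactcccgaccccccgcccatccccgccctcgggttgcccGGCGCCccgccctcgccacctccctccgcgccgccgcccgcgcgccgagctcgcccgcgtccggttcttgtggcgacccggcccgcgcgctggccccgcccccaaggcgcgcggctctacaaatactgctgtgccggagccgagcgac

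The Bmpr1b windows shown had a CAGAC match that begins 245 and 128 bases before the start, and the third window of the gene, which overlaps annotated exons, had no match to any of the motifs. Grem1 had a CAGAC match that begins 219 bases before the start and a GGCGCC match at 78 bases. Gdf10 had a CAGAC match at 98 bases, Bmp4 an E-box at 188 bases and no match to the SMAD motifs searched, and Id4 a GGCGCC match at 148 bases. RefSeq windows were found for 39 of the 55 members, 52 windows in all. CAGAC was found in 51.9% of them, beside 42.2% of all 32817 windows of that length and 40.6% of windows of genes with at least 20 summed counts. The shares for GGCGCC were 23.1%, 9.59% and 16.3% in the same order, and those for CACGTG 9.62%, 6.02% and 8.08%. GTCTAGAC was in none of the 52, beside 0.168% of all windows and 0.211% of those of measured genes. The motifs do not overlap each other, and a match is a description of the letters and not of a bound site.

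The intracellular regulators had ratios at or a little above 1. Tgif1, a corepressor that binds Smad2 and Smad3, had 860 and 920 counts (0.21, 0.08 to 0.35). The ubiquitin ligase Smurf1, which marks BMP SMADs for breakdown, had 2372 and 2355 (0.11, 0.02 to 0.19). Its relative Smurf2 had 4842 and 4481 (0.01, -0.05 to 0.06). Bambi, a decoy receptor that lacks the kinase domain, had 385 and 365 (0.04, -0.17 to 0.25). Smurf2 was the most abundant of the 4 at 26.6 and 26.7 CPM per kb.

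Id genes encode helix-loop-helix proteins that lack a DNA-binding region, and Id1, Id2 and Id3 are classic direct targets of BMP-activated SMADs. All 3 stayed level. Id3 counted 16425 reads in the control and 15445 after Sparcl1, 556.8 and 567.9 CPM, a log2 ratio of 0.03 (0.00 to 0.06). Id1 had 3818 and 3577 counts, 129.4 and 131.5 CPM (0.02, -0.04 to 0.09). Id2 had 2663 and 2464, 90.3 and 90.6 CPM (0.01, -0.07 to 0.08). At these depths the upper interval bounds allow differences of at most 0.09 on the log2 scale, as far as counting error goes. Id4 was the exception, with 729 and 581 counts, 24.7 and 21.4 CPM, and a log2 ratio of -0.21 (-0.37 to -0.05). Id3 made up 69.5% of Id counts in the control (68.9 to 70.1) and 70.0% after Sparcl1 (69.4 to 70.6), and Id1 16.2% in both. Per kilobase, Id3 (310.9 and 317.1 CPM per kb) and Id1 (111.6 and 113.4) were the highest and the next highest of all 55 members in both libraries. With longest-transcript lengths, Ltbp2 (122.7 CPM per kb) passed Id1 (113.4) after Sparcl1.

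Beyond these members, 107 further genes of the pathway and its targets were listed by role, of which 82 had at least 20 summed counts. Their median log2 ratio was -0.06. By the 2-fold rule 2 were higher and 1 was lower, all from few reads, where the rule took 0.954% and 0.946% of all genes. Amh, the anti-Müllerian hormone gene, had 6 and 16 counts (1.53, 0.10 to 3.17). Hey2, a transcriptional repressor that both BMP and Notch signals can induce, had 20 and 37 (1.00, 0.18 to 1.87). Gdf7, a relative of Gdf5 and Gdf6, had 26 and 8 (-1.58, -2.94 to -0.40) and so went the opposite way to both. At 1.5-fold, where the shares of all genes were 2.32% and 2.35%, Acta2 joined the lower genes. Of 16 other ligands, 9 had no count in either library, Mstn and Nodal among them, and Lefty1 was the most abundant with 279 and 305 counts (0.25, 0.01 to 0.49). Bmp8a, the next most abundant, had 25 and 36 (0.64, -0.13 to 1.44).

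Among 16 genes that process or release latent TGF-β, none passed 1.5-fold. Thbs1 (thrombospondin 1, an activator of latent TGF-β) had the most counts, 1047168 and 760679 (-0.34, -0.35 to -0.34), followed by the integrin gene Itgb5 with 15376 and 13461 (-0.07). Of 17 other antagonists, 10 had at least 20 summed counts and none passed 1.5-fold. Their median was 0.31, and 7 of the 10 had at least 200 summed counts. The genes with the most counts were Fstl1 (26331 and 25132 counts, 0.05) and Crim1 (9324 and 8469, -0.02). Next came Nbl1, a BMP-binding relative of gremlin (7261 and 8736, 0.38, 0.34 to 0.43), and Twsg1 (8256 and 7560, -0.01, -0.06 to 0.04). The receptor list held 3 measured genes, with Rgmb (1866 and 1645 counts, -0.06) and Rgma (1229 and 1092, -0.05) the most abundant. Of 20 further SMAD regulators, 15 (75%) had ratios below 1, beside 50.4% of all genes, with a median of -0.11. Ski (14219 and 12797, -0.03) and Ctdsp2 (11549 and 10198, -0.06) had the most counts. The SMAD corepressor gene Skil was below the central range with 2361 and 1608 counts (-0.44, -0.53 to -0.34), and Tab1, an activator of the TAK1 kinase, was above it with 578 and 743 (0.48, 0.32 to 0.64).

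Of 19 measured TGF-β target genes, 14 (73.7%) had ratios below 1, beside 50.4% of all genes, and the median log2 ratio was -0.16 against 0.00. The interval excluded 0 for 14 lower genes (73.7%) and 2 higher genes (10.5%), beside 21.6% and 20.1% of all genes. All 19 had at least 200 summed counts, against 84.1% of all genes, and more counts give narrower intervals. Below the central range were 5 genes and above it 0, where 2.5% of all abundant genes lie on each side. Acta2, smooth muscle actin, had 24554 and 14385 counts (-0.65, -0.68 to -0.62), Tagln 10427 and 6712 (-0.52, -0.56 to -0.47), and the matrix gene Postn 35273 and 22815 (-0.51, -0.54 to -0.49). Lmcd1 had 2612 and 1765 (-0.45, -0.54 to -0.36), and the last was Skil. The matricellular genes Ccn2 (62210 and 51608 counts, -0.15) and Ccn1 (36496 and 33740, 0.00) were closer to level. The most abundant targets were Fn1, which encodes fibronectin (701344 and 629977 counts, -0.04), and the collagen gene Col1a1 (242065 and 171600, -0.38). Prg4, the lubricin gene, was higher with 10767 and 12993 (0.39, 0.35 to 0.43).

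Of the 19 targets, 6 are also on the lists of fibroblast or smooth muscle markers (Col1a1, Col1a2, Col3a1, Postn, Acta2 and Tagln). Both lists had lower summed levels in the treated library, but these sums include the 6 genes and are no separate measure. In the control, Col1a1 gave 35.18% and Col1a2 33.35% of the fibroblast list's counts, and Acta2 gave 53.63% of the smooth muscle list's. Over the 13 targets outside the marker lists the median was -0.06, with 8 ratios (61.5%) below 1, beside 50.4% of all genes. Of these 13, 2 genes (Skil and Lmcd1) lay below the central range, where 2.5% of all abundant genes lie. Elsewhere on the smooth muscle list, the contractile gene Cnn1 was at -0.42 (-0.59 to -0.26) and Rgs5 (145 and 89 counts) at -0.59 (-0.98 to -0.20). Pdgfrb (9761 and 8319 counts) was at -0.11 (-0.16 to -0.07) and Mcam (129 and 106) at -0.17 (-0.55 to 0.22). Myh11 (16 and 14 counts) and Des (3 and 6) were nearly absent.

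BMP target genes other than the Id genes had a median log2 ratio of -0.09 over 14 measured genes, 10 of them (71.4%) below 1, beside 50.4% of all genes. The most abundant was Atoh8, a helix-loop-helix factor, with 4964 and 4564 counts (0.00, -0.06 to 0.05). Alpl, the alkaline phosphatase gene of mineralising cells, was below the central range with 1664 and 1057 (-0.54, -0.65 to -0.43). The osteoblast factor genes Sp7 (364 and 272 counts, -0.30, -0.54 to -0.07) and Dlx5 (562 and 428, -0.28, -0.46 to -0.09) were also lower beyond counting error, and Runx2 (1584 and 1361, -0.10, -0.21 to 0.00) was not. The interval excluded 0 for 3 lower genes (21.4%) and 2 higher genes (14.3%, Hey2 and Bmper), beside 21.6% and 20.1% of all genes. Alpl and Sp7 are on the list of osteoblast markers too, and all 7 measured markers on that list had ratios below 1, with a median of -0.54. Over the 12 measured genes of the other 14 the median was -0.07.

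**Figure D4:**
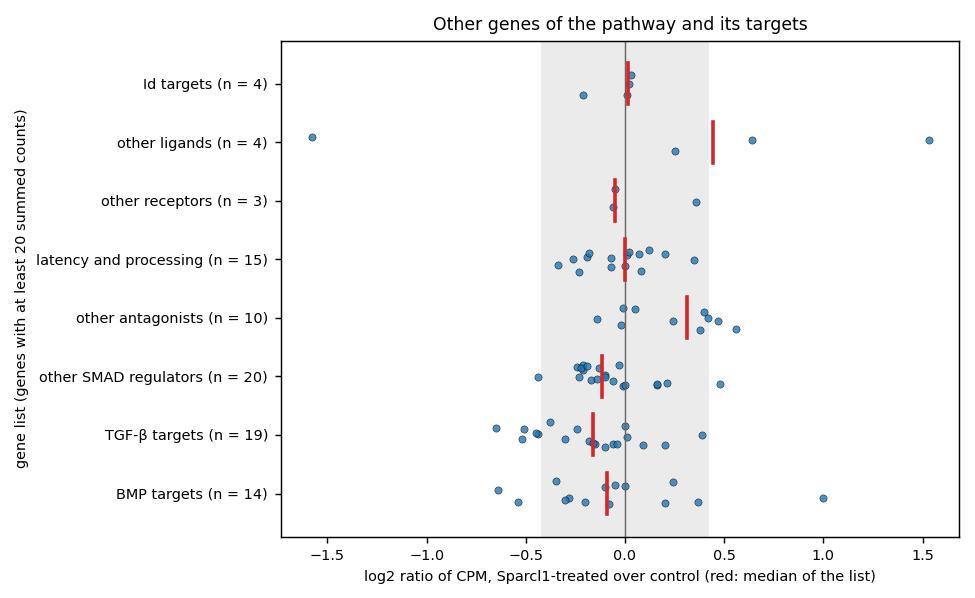
Log2 ratios of CPM (x axis, Sparcl1-treated over control) of the Id targets and of 7 further lists of pathway genes (y axis), 1 point per gene with at least 20 summed counts, red lines at list medians and the central 95% of abundant genes shaded. TGF-β targets reach from -0.65 to 0.39 with a median of -0.16, while Id1, Id2 and Id3 lie between 0.01 and 0.03.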

How the data were processed

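RNA-seq was compared between 2 libraries of primary mouse chondrocytes, PBS control and Sparcl1-treated, 1 per group. The authors deposited unnormalized read counts by gene symbol. The tools HTSeq, STAR, Trimmomatic and FastQC and build mm10 are named per the submitters' processing notes, and the sources used here do not state versions, annotation or strand setting. The members, role lists and pathway lists were chosen with earlier results of these data known.

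Counts of all 21983 entries were scaled with TMM factors (0.988 and 1.01; edgeR 4.0.16, R 4.3.3), and only the rows of the listed genes are given. Intervals are exact 95% Clopper-Pearson intervals on the treated part of a gene's counts. Pair ratios have exact conditional intervals. The steps were tested on simulated data that held counting error only, so the test says nothing about variation between cultures. Symbols were matched to GENCODE M21 (GRCm38) for 99.6% of entries and all 55 members, and 4 list symbols were matched by an older symbol. Levels between genes use the union of annotated exons. Promoters come from RefSeq (GRCm38.p6).

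Every member was named. Of other pathway lists, genes past 1.5-fold and the 2 with the most counts were named, and further examples were chosen after their values were seen. Alternatives were scaling by total counts, by upper-quartile factors or by DESeq2 1.42.0, no count filter, a minimum of 100 summed counts, 3-fold, a prior count of 2, means and longest-transcript lengths. Python 3.11.15 with scipy 1.17.1 was used for the rest.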

Additional observations from a re-analysis of the deposited data

How the results depend on the processing

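Depth limits the rare ligands: Bmp7 was the member called at 2-fold, and with at least 100 summed counts 0 members were called, because its 60 reads fall below that minimum. At 1.5-fold, 5 members were higher with total counts as library sizes against 3 with TMM factors, since this scaling raises every ratio by 0.035 on the log2 scale and takes Gdf5 and Grem1, at 1.493-fold and 1.497-fold, past the limit. DESeq2 and upper-quartile factors gave the same 4 members at 1.5-fold. The number of members whose interval excluded 0 was 14 higher and 15 lower, and 20 and 15 with total counts. The median log2 ratio of the members ran from 0.00 to 0.04 over all scalings, filters and the mean. Of the 55 single ratios, 3 left their counting interval with total counts (Ltbp2 at 0.53, Ltbp3 at 0.20 and Id3 at 0.06) and 0 did so with the other scalings or a prior count of 2. With longest-transcript lengths, 11 of 13 roles kept their most abundant gene in both libraries. No alternative that leaves out a replicate exists with 1 library per group.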
